A study of Saccharomyces cerevisiae with 6 samples.

Results

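The 10 genes described here are yeast genes of thiamine synthesis, uptake and regulation: THI4, THI5, THI20, THI21, THI6, THI7, THI2, THI3, THI80 and PHO3. They were picked out of the 5703 features of the deposited tables by gene name, and were chosen on the measured difference between these same strains, so their values are a description and carry no test. All 10 names were found, each as 1 feature, and all 10 passed the filter of a mean FPKM of at least 1.

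The study compared messenger RNA of 2 Saccharomyces cerevisiae strains. In IMF17 the glycolytic enzymes come exclusively from genes on a neochromosome, a synthetic chromosome added to the cell, whereas in IMX2109 they come from the native genome. The sources used here give no other genotype of the strains. Each strain was 1 stock grown as 3 aerobic shake-flask cultures (100 mL in a 500 mL flask) on a selective minimal medium with glucose, and was harvested in mid-exponential growth at an OD660 of 8. The unit, FPKM, divides the reads of a gene by its length and by the total of its library, so values are relative. RNA was measured from whole cultures, so a change in every cell and a change in some of the cells cannot be told apart. Differences between the strains other than the site of glycolysis cannot be told apart from it. P-values set the strain difference against the spread between these cultures of 1 stock per strain, not between separately built strains.

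Thiamine, vitamin B1, is made in yeast by joining a thiazole ring to a pyrimidine ring, and is used as thiamine diphosphate, the cofactor of enzymes such as pyruvate decarboxylase and transketolase. Yeast can also take thiamine up from the medium. Many of the synthesis and uptake genes are known to be low when thiamine is plentiful and high when it runs short, through the regulators Thi2, Thi3 and Pdc2. The sources used here do not say whether the medium contained thiamine.

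Some of these genes have close copies, so sequences of the copies are shown first. PHO3 and PHO5 encode acid phosphatases and lie side by side. In the coding sequences of the R64 reference genome, matched by locus tag, they were 86.5% identical, with 189 of 1404 bases different. The first pair of lines gives coding bases 841 to 960, the 120 bases with the most differences (35), and the second pair gives bases 271 to 390, those with the fewest (1). Lines run 5′ to 3′ and capitals mark bases that differ between the pair. The strains' own sequences may differ from R64.
PHO3, bases 841 to 960: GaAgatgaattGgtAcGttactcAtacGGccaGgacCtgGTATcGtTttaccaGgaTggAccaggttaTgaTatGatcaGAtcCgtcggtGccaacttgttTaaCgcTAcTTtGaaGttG
PHO5, bases 841 to 960: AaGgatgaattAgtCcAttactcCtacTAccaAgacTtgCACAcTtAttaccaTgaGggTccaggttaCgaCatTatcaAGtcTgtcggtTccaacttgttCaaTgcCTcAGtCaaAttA
PHO3, bases 271 to 390: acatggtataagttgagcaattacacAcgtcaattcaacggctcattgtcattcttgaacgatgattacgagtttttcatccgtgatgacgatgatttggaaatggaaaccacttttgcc
PHO5, bases 271 to 390: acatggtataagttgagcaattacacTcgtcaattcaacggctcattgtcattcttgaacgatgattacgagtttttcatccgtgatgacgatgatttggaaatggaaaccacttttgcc

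THI5 has the near-identical copies THI11, THI12 and THI13. Coding identity in R64 ran from 97.8% to 99.3% among the 4 genes, and THI5 and THI12 differed at 7 of 1023 bases. Their most different stretch, coding bases 400 to 519, is shown with the 3 differing bases in capitals.
THI5, bases 400 to 519: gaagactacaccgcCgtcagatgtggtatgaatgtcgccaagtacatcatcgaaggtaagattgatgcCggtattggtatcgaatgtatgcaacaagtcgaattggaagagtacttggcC
THI12, bases 400 to 519: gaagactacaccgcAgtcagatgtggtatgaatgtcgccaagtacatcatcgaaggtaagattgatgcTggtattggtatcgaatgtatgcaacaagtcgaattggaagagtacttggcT
A read can be placed on 1 copy only where it covers a base that differs. Of all windows of 50 bases in the R64 coding sequence, 85.0% were repeated elsewhere in the genome for THI5, 8.71% for PHO3 and 1.60% for THI7. No such window was repeated for THI4, THI2, THI3, THI6, THI20, THI21 or THI80. At 100 bases the share was 59.5% for THI5 and 0% for PHO3. The sources used here give neither the read length nor the treatment of reads that match more than 1 place, so the split of reads among THI5 and its copies is uncertain.

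The libraries held 14999412 to 15914985 counted reads in IMF17 and 14696540 to 18801158 in IMX2109. The strain labels held: 95 of the 124 neochromosome features were read over 3 times in IMF17 and had 0 reads in every IMX2109 library. Some neochromosome features did take reads in IMX2109, whose reads were counted on the IMF17 assembly. PDC1, counted on the neochromosome, was at 7442 FPKM in IMX2109. Such reads do not show that IMX2109 carries these features, and their origin was not tested. Neochromosome features without a match in the R64 annotation took 1.27% to 1.41% of reads in IMX2109 and 3.73% to 3.77% in IMF17. The 4 genes of the 2-micron plasmid had 14854 to 15176 reads in each IMF17 library and 0 in IMX2109. Reads on the nuclear chromosomes were 84.6 ± 0.323% of the total for IMF17 and 90.4 ± 0.519% for IMX2109 (SD, n = 3). The median log2 fold change of the tested nuclear features was -0.07 as deposited and 0.02 after rescaling on nuclear reads. IMX2109 replicate 3 stood apart from the other cultures of its strain (chi-square per degree of freedom of 18.1 and 8.52, against 3.15 to 7.22 for the other pairs).

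Across the 10 genes, 8 were higher in IMF17 and past the threshold of limma (adjusted p under 0.05 over all features), and none was lower. Among the 5425 features tested, 12.1% were called higher and 25.3% lower, that is 654 and 1375 features. After median-ratio rescaling these counts were 882 and 641, and after rescaling on nuclear reads 1032 and 480. In the same 8 genes every IMF17 library lay above every IMX2109 library, a pattern shown by 14.5% of tested features. Because the genes were chosen with this contrast known, nothing is read from those shares. The median log2 fold change was 0.81 over the 10 genes and -0.07 over all tested features. Without IMX2109 replicate 3 the count of genes called was again 8, which is likewise a description only.

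**Figure D1:**
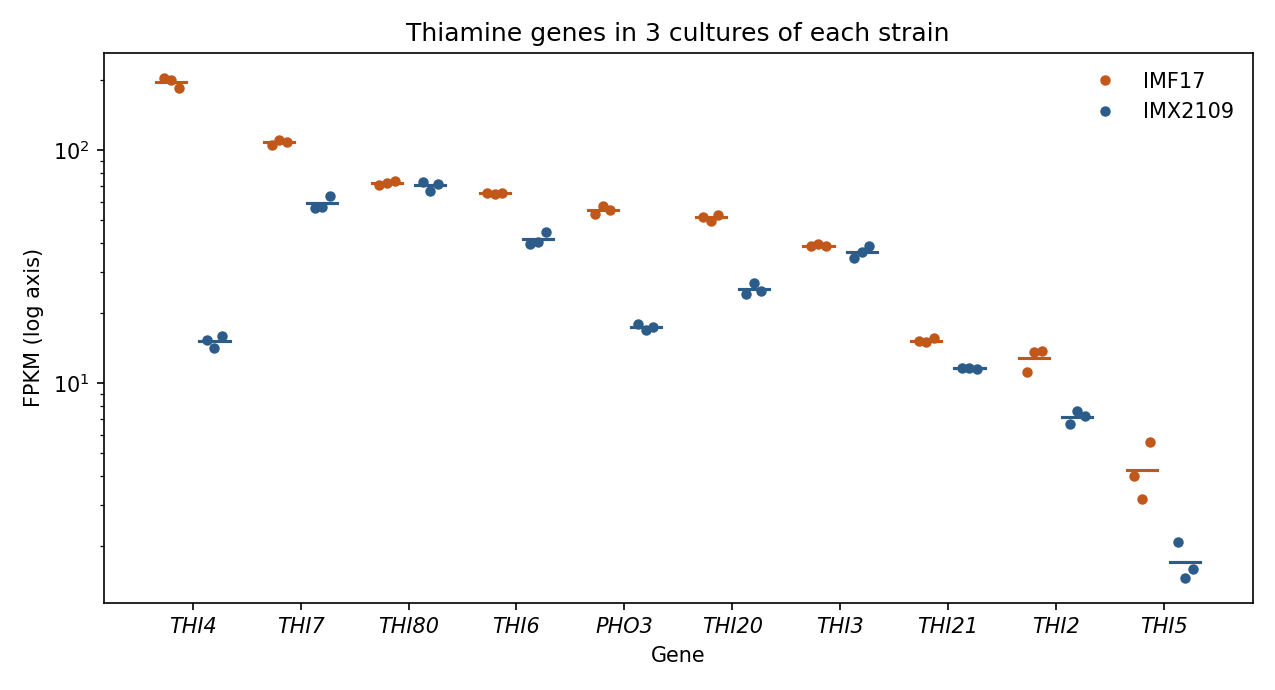
FPKM of the 10 thiamine genes on a log axis, 1 point per culture (3 of IMF17 in orange, left, and 3 of IMX2109 in blue, right), with a bar at the mean of each strain. THI4 lies at 185 to 204.5 FPKM in IMF17 cultures and at 14.2 to 15.9 FPKM in IMX2109 cultures, while the points of THI80 and of THI3 overlap between the strains.

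THI4 makes the thiazole part of thiamine, giving up a sulfur atom of its own protein in the reaction. Its gene lies on chromosome 7 at 806231 to 807211, plus strand; this and all later positions are on the IMF17 assembly of the deposited tables. THI4 was at 204.5, 200.3 and 185 FPKM in IMF17 and at 15.3, 14.2 and 15.9 FPKM in IMX2109. The strains did not overlap, and the gap was far wider than the spread within either. The mean was 197 ± 10.1 FPKM for IMF17 and 15.1 ± 0.874 FPKM for IMX2109 (SD over n = 3 cultures, as for every mean below), a 13.0-fold difference and a log2 fold change of 3.62 ± 0.06 (SE, on the log2(FPKM + 1) scale). These means rest on 8994 reads over the IMF17 libraries and 763 over the IMX2109 libraries. By mean level THI4 ranked 844 of 5557 nuclear features in IMF17 and 4730 in IMX2109.

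THI5, on chromosome 6 at 8376 to 9398, plus strand, makes the pyrimidine part, using pyridoxal phosphate and a histidine of its own protein. As counted, it had the lowest level of the 10 genes in both strains. THI5 was at 3.98, 3.19 and 5.59 FPKM in IMF17 and 2.08, 1.46 and 1.60 FPKM in IMX2109. Whether reads matching more than 1 place were left out, which would lower these values, is not known. The strains did not overlap, but IMF17 replicate 3 lay well above the other cultures of that strain. Means were 4.25 ± 1.22 FPKM in IMF17 and 1.71 ± 0.325 FPKM in IMX2109, 2.48-fold apart, on 204 reads and 91 reads in all. The log2 fold change was 0.94 ± 0.16 and moved with the treatment of low values, to 0.46 with a pseudocount of 5 and 1.28 with limma-voom on recovered reads. Summed over THI5, THI11, THI12 and THI13, the level was 24.3 ± 0.984 RPM in IMF17 and 15.6 ± 1.61 RPM in IMX2109, 1.56-fold apart. RPM are reads scaled as for FPKM but not by length. The sum does not depend on how reads are split among the 4 copies, but would lack any multiply matching reads that were left out.

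The pyrimidine part is phosphorylated by kinases encoded by THI20 and THI21. THI20, on chromosome 15 at 215717 to 217372, minus strand, was at 51.9, 49.8 and 52.9 FPKM in IMF17 and 24.2, 27.0 and 24.9 FPKM in IMX2109. Its means were 51.5 ± 1.54 FPKM in IMF17 and 25.3 ± 1.44 FPKM in IMX2109, 2.03-fold apart, with no overlap and a log2 fold change of 1.00 ± 0.06. THI21, on chromosome 16 at 62287 to 63942, minus strand, differed less: it was at 15.1, 15.0 and 15.6 FPKM in IMF17 and 11.6, 11.6 and 11.5 FPKM in IMX2109. The gap was small but wider than the spread, with means of 15.2 ± 0.299 FPKM in IMF17 and 11.6 ± 0.0507 FPKM in IMX2109, 1.31-fold apart (log2 fold change 0.37 ± 0.07). THI20 therefore exceeded THI21 by a ratio of 3.38 ± 0.0506 in IMF17 and 2.19 ± 0.115 in IMX2109. Their coding sequences were 82.1% identical in R64.

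THI6 joins the pyrimidine and thiazole parts into thiamine phosphate. Its gene, on chromosome 16 at 157345 to 158967, minus strand, was at 65.4, 64.9 and 65.6 FPKM in IMF17 and 39.6, 40.3 and 44.4 FPKM in IMX2109. The IMF17 cultures lay within 1 FPKM of each other and all above IMX2109. Means were 65.3 ± 0.345 FPKM in IMF17 and 41.4 ± 2.63 FPKM in IMX2109, 1.58-fold apart (log2 fold change 0.65 ± 0.06). THI80, on chromosome 15 at 593753 to 594712, minus strand, encodes the pyrophosphokinase that turns thiamine into the active diphosphate. It was at 70.9, 72.4 and 73.8 FPKM in IMF17 and 73.5, 67.1 and 71.4 FPKM in IMX2109, so the strains overlapped. Means were 72.4 ± 1.42 FPKM in IMF17 and 70.7 ± 3.25 FPKM in IMX2109, and the log2 fold change was 0.03 ± 0.05. THI80 had the smallest difference of the 10 genes.

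Uptake runs through THI7, the thiamine transporter of the plasma membrane, on chromosome 12 at 643137 to 644933, plus strand. It was at 105.1, 111 and 108 FPKM in IMF17 and 56.7, 57.4 and 63.7 FPKM in IMX2109. The strains were well apart, with means of 108 ± 3.07 FPKM in IMF17 and 59.3 ± 3.84 FPKM in IMX2109, 1.83-fold (log2 fold change 0.86 ± 0.06). NRT1 and THI72, whose coding sequences were 83.8% and 84.0% identical to that of THI7 in R64, did not pass the test (log2 fold changes of 0.09 and 0.10), although NRT1 passed under both rescalings of the libraries. THI7 exceeded NRT1 by a ratio of 3.85 ± 0.0533 in IMF17 and 2.25 ± 0.0357 in IMX2109, on the length given for NRT1 in the tables, which is longer than its R64 coding sequence.

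PHO3 encodes an acid phosphatase outside the plasma membrane that removes phosphate from thiamine phosphates, which lets thiamine be taken up. It lies on chromosome 2 at 417612 to 419015, minus strand. PHO3 was at 53.3, 57.6 and 55.5 FPKM in IMF17 and 18.0, 16.8 and 17.4 FPKM in IMX2109. The strains did not overlap, and after THI4 this was the largest difference of the 10 genes. Means were 55.5 ± 2.18 FPKM in IMF17 and 17.4 ± 0.593 FPKM in IMX2109, 3.18-fold apart (log2 fold change 1.61 ± 0.06). PHO5, the acid phosphatase known to respond to phosphate, lies 446 bases from PHO3 on the same strand (419462 to 420865), upstream of it. PHO5 averaged 186 ± 8.26 FPKM in IMF17 and 34.3 ± 2.88 FPKM in IMX2109, and rose 5.43-fold (limma adjusted p = 1.61e-10). PHO5 exceeded PHO3 by a ratio of 3.37 ± 0.281 in IMF17 and 1.97 ± 0.194 in IMX2109, so the differences of these copies were of unlike size. Their reads summed to 339 ± 8.68 RPM in IMF17 and 72.7 ± 3.96 RPM in IMX2109, 4.67-fold apart. How far reads of PHO5 were counted on PHO3 was not tested, and the stretch of bases 271 to 390 shown above differs at 1 position only.

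The regulators differed from each other. THI2, on chromosome 2 at 692532 to 693884, minus strand, encodes an activator of the thiamine genes. It was at 11.2, 13.6 and 13.7 FPKM in IMF17 and 6.68, 7.62 and 7.24 FPKM in IMX2109. Every IMF17 culture was above every IMX2109 culture, with IMF17 replicate 1 the lowest of its strain. Means were 12.8 ± 1.41 FPKM in IMF17 and 7.18 ± 0.469 FPKM in IMX2109, 1.78-fold apart (log2 fold change 0.75 ± 0.10). THI3, on chromosome 4 at 310860 to 312689, minus strand, encodes a regulator that binds thiamine diphosphate. It was at 38.7, 39.4 and 38.7 FPKM in IMF17 and 34.3, 36.7 and 38.9 FPKM in IMX2109, and IMX2109 replicate 3 reached into the range of IMF17. Means were 38.9 ± 0.418 FPKM in IMF17 and 36.6 ± 2.27 FPKM in IMX2109 (log2 fold change 0.09 ± 0.06). THI3 passed the threshold only under the median-ratio and nuclear rescalings, which made 9 of the 10 genes called. PDC2, the third regulator, averaged 35.6 ± 1.29 FPKM in IMF17 and 38.8 ± 2.67 FPKM in IMX2109 and did not pass the test (limma, log2 fold change -0.12).

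THI4 also stood in a different place among the 10 genes. In IMF17 the order by level was THI4, THI7, THI80, THI6, PHO3, THI20, THI3, THI21, THI2 and THI5. In IMX2109 it was THI80, THI7, THI6, THI3, THI20, PHO3, THI4, THI21, THI2 and THI5, so THI4 stood in place 1 in IMF17 and place 7 in IMX2109. The last place of THI5 in both orders holds only as counted, since most of its sequence is repeated in the genome. No neighbours in either order overlapped between cultures, and the closest were PHO3 and THI20 in IMF17, with lowest PHO3 at 53.3 FPKM and highest THI20 at 52.9 FPKM. The 10 genes summed to 621 ± 6.22 FPKM in IMF17 and 286 ± 9.25 FPKM in IMX2109, and without THI4 to 424 ± 7.59 FPKM in IMF17 and 271 ± 8.56 FPKM in IMX2109. THI4 made up 31.7 ± 1.44% of the sum in IMF17 and 5.28 ± 0.199% in IMX2109. The ratio of THI4 to THI80, the gene of the last step, was 2.72 ± 0.189 in IMF17 and 0.214 ± 0.00719 in IMX2109.

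Spread between cultures was small for most of the genes. The coefficient of variation ran from 0.528% (THI6) to 28.7% (THI5) in IMF17 and from 0.438% (THI21) to 19.0% (THI5) in IMX2109. The 2 genes with the lowest counted levels, THI2 and THI5, were the only ones above 10% in IMF17. Both are left out by a filter of 10 FPKM, which leaves 6 of the other 8 genes called.

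Another 10 features of thiamine synthesis, uptake and regulation were tested. This list and those below were chosen with earlier results of these data known. Their p-values do not allow for that choice, and nothing is read from their counts. Of the 10 features here, 3 rose in IMF17, none fell and 7 did not pass (median log2 fold change 0.10). The shares over all tested features were 12.1% higher and 25.3% lower. THI12, a copy of THI5, averaged 8.58 ± 0.538 FPKM in IMF17 and 4.76 ± 0.476 FPKM in IMX2109 (log2 fold change 0.74, or 0.48 with a pseudocount of 5, limma adjusted p = 0.000186). THI74, a gene known to be held low by thiamine, averaged 25.4 ± 1.85 FPKM in IMF17 and 19.0 ± 0.509 FPKM in IMX2109 (0.40, limma adjusted p = 0.00161). THI13, another copy of THI5, passed narrowly, with 4.32 ± 0.739 FPKM in IMF17 and 3.10 ± 0.426 FPKM in IMX2109 (0.37, limma adjusted p = 0.0411). The log2 fold change of THI13 was 0.20 with a pseudocount of 5. Its cultures overlapped, and the call was lost with limma-voom and without IMF17 replicate 1, IMF17 replicate 2, IMX2109 replicate 2 or IMX2109 replicate 3, with log2 fold changes of 0.46, 0.28, 0.36, 0.34 and 0.32. Of the 50-base windows in R64, 70.6% were repeated in the genome for THI12 and 60.0% for THI13. The split of reads among THI5 and its copies is uncertain, so the rises of THI12 and THI13 may not be separate measurements. The remaining copy, THI11, averaged 6.64 ± 0.800 FPKM in IMF17 and 5.71 ± 0.421 FPKM in IMX2109 and did not pass (0.18). Nor did THI22, a relative of THI20 (0.08), THI73 (-0.09) or TPC1, the mitochondrial carrier of thiamine diphosphate (-0.05).

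**Figure D2:**
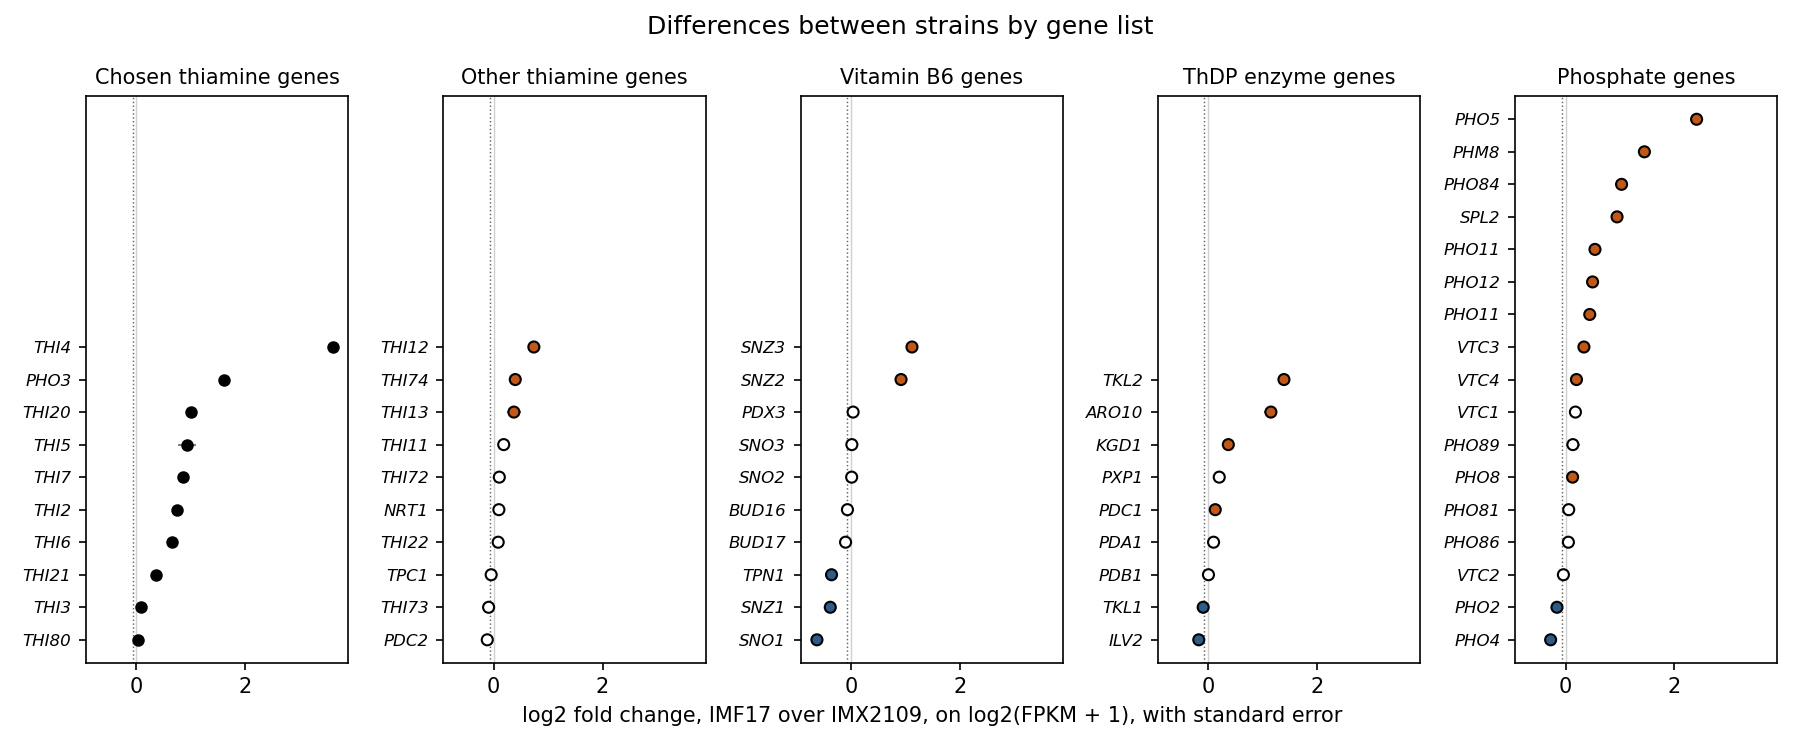
Log2 fold change, IMF17 over IMX2109, of each gene of 5 lists, with 1 point per feature and its standard error, often narrower than the point (ThDP stands for thiamine diphosphate). Black points are the 10 thiamine genes, which carry no test, orange points rose and blue points fell in limma, and white points did not pass. The dotted line is the median of all tested features, -0.07. THI4 at 3.62 lies farthest right, followed by PHO5 at 2.41.

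Vitamin B6 genes were examined because pyridoxal phosphate is the source of the pyrimidine part. Of 10 such genes, 2 rose, 3 fell and 5 did not pass (median log2 fold change -0.03). Over all tested features 12.1% were called higher and 25.3% lower, and nothing is read from the counts of this list. SNZ3, for pyridoxal phosphate synthesis, was at 36.2, 29.6 and 31.5 FPKM in IMF17 and 15.2, 14.7 and 13.1 FPKM in IMX2109 (log2 fold change 1.12, limma adjusted p = 2.99e-06). SNZ2 was at 34.6, 32.2 and 30.9 FPKM in IMF17 and 17.6, 15.7 and 16.9 FPKM in IMX2109 (0.92, limma adjusted p = 2.97e-06). These genes were 99.3% identical in R64, and the sum of their reads was higher by 2.09-fold in IMF17. SNZ1, the member of the family away from the THI genes, fell to 96.0 ± 2.31 FPKM in IMF17, against 125 ± 7.08 FPKM in IMX2109 (-0.38, limma adjusted p = 0.000195). Its neighbour SNO1 fell to 15.0 ± 1.56 FPKM in IMF17, against 23.6 ± 0.516 FPKM in IMX2109 (-0.63, limma adjusted p = 0.000184). The pyridoxine transporter TPN1 fell as well, with 102 ± 5.80 FPKM in IMF17 and 131 ± 6.10 FPKM in IMX2109 (-0.36, limma adjusted p = 0.000505). SNO2, SNO3, PDX3, BUD16 and BUD17 lay between -0.10 and 0.04 and did not pass, although PDX3, for conversion to pyridoxal phosphate, passed after nuclear rescaling (0.13).

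THI5 and THI12 each lie beside a SNO and SNZ pair. On chromosome 6 the order was SNO3 on the minus strand, SNZ3 and then THI5 on the plus strand, and on chromosome 14 it was SNO2, SNZ2 and THI12 in the same arrangement. In both places 669 bases separated the SNZ gene from the THI gene. SNZ and THI genes were higher in IMF17 at both loci. SNO3 averaged 9.28 ± 1.36 FPKM in IMF17 and 9.11 ± 0.146 FPKM in IMX2109. SNO2 averaged 12.1 ± 0.969 FPKM in IMF17 and 11.9 ± 0.238 FPKM in IMX2109. In R64, SNZ2 and SNZ3 were 99.3% identical and SNO2 and SNO3 99.7%. Of their 50-base windows, 77.1% were repeated in the genome for SNZ2 and 86.5% for SNO2. The split of reads between the loci is therefore uncertain, and the loci cannot be taken as separate cases. On the far side of THI5, AAD16 fell to 21.6 ± 1.14 FPKM in IMF17, against 36.4 ± 0.736 FPKM in IMX2109 (limma adjusted p = 7.13e-06). AAD6 fell too (log2 fold change -0.54, limma adjusted p = 5.97e-05), while the AAD14 feature beside THI12 did not pass (-0.04). THI11 and THI13 had no SNZ gene beside them in the tables.

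**Figure D3:**
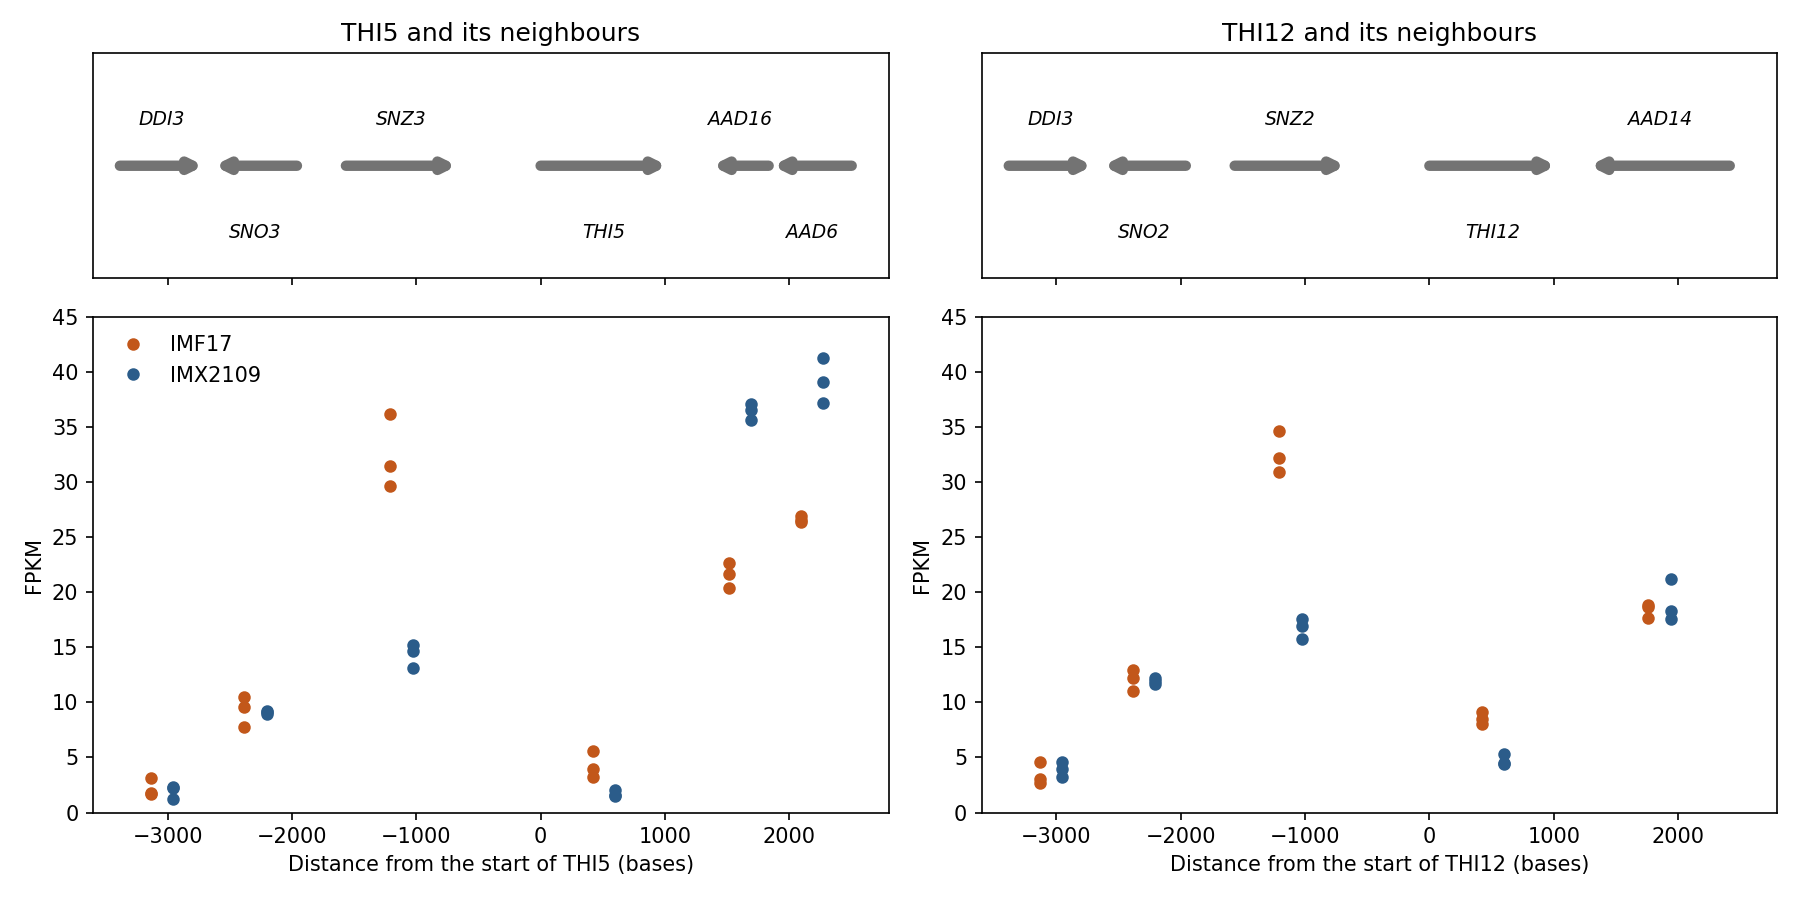
Genes around THI5 (left) and THI12 (right), drawn as arrows in the direction of transcription above their FPKM, against the distance in bases from the start of each THI gene. Points are cultures, 3 of IMF17 (orange, left) and 3 of IMX2109 (blue, right). SNZ3 and SNZ2 are higher in all IMF17 cultures, SNO3 and SNO2 overlap between strains, and AAD16 and AAD6 are lower in IMF17. The THI, SNZ and SNO copies are near-identical, so the split of their reads between the loci is uncertain.

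Enzymes that carry thiamine diphosphate were mixed: of 9 features tested, 4 rose, 2 fell and 3 did not pass (median log2 fold change 0.13). Among all tested features 12.1% were called higher and 25.3% lower. The rises with the largest folds were in genes at low level. TKL2, the minor transketolase, averaged 4.63 ± 0.363 FPKM in IMF17 and 1.15 ± 0.139 FPKM in IMX2109 (1.39, limma adjusted p = 3.36e-06). ARO10, a phenylpyruvate decarboxylase, averaged 6.15 ± 0.822 FPKM in IMF17 and 2.22 ± 0.313 FPKM in IMX2109 (1.15, limma adjusted p = 3.08e-05). The size of both depended on the treatment of low values: with a pseudocount of 5 the log2 fold change was 0.65 for TKL2 and 0.63 for ARO10, and with limma-voom 2.00 for TKL2 and 1.47 for ARO10. KGD1, of 2-oxoglutarate dehydrogenase, averaged 115 ± 4.05 FPKM in IMF17 and 89.4 ± 10.8 FPKM in IMX2109 (0.37, limma adjusted p = 0.00304). PDC1, the main pyruvate decarboxylase, is counted on the neochromosome and averaged 8136 ± 245 FPKM in IMF17 and 7442 ± 188 FPKM in IMX2109 (0.13, limma adjusted p = 0.0378). The log2 fold change of PDC1 was 0.22 after nuclear rescaling, and its call was lost after median-ratio rescaling (0.19) and without any 1 IMF17 replicate (0.10 to 0.15) or IMX2109 replicate 2 (0.15). ILV2, an acetolactate synthase, fell (-0.17, limma adjusted p = 0.00968), but not past the threshold after median-ratio (-0.11) or nuclear (-0.08) rescaling. TKL1, the major transketolase, fell at the threshold (-0.09, limma adjusted p = 0.0488), was at 0.0027 after nuclear and -0.03 after median-ratio rescaling, and lost its call there and without any 1 library except IMX2109 replicate 3 (-0.09 in each case). PDA1 (0.10), PDB1 (0.00) and PXP1 (0.20) did not pass. PXP1 did pass after median-ratio (0.26) and nuclear (0.29) rescaling and with limma-voom (0.21), and PDA1 after nuclear rescaling (0.19), so that 6 of the 9 features rose on nuclear reads.

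Since PHO3 lies beside PHO5, genes of phosphate uptake and storage were also examined. Of 17 features, 10 rose, 2 fell and 5 did not pass (median log2 fold change 0.20). For all tested features the shares were 12.1% higher and 25.3% lower. PHM8, a phosphatase gene induced at low phosphate, averaged 47.1 ± 2.02 FPKM in IMF17 and 16.6 ± 1.26 FPKM in IMX2109 (1.45, limma adjusted p = 4.28e-08). The phosphate transporter gene PHO84 averaged 156 ± 3.71 FPKM in IMF17 and 75.9 ± 2.06 FPKM in IMX2109 (1.03, limma adjusted p = 1.11e-08). SPL2 averaged 26.7 ± 2.31 FPKM in IMF17 and 13.4 ± 1.91 FPKM in IMX2109 (0.95, limma adjusted p = 4.12e-05). The acid phosphatases PHO11 (0.45 and 0.54 for its 2 features) and PHO12 (0.50) rose less than PHO5. PHO11 and PHO12 were 99.7% identical in R64, with 88.3% and 87.2% of their 50-base windows repeated in the genome. The split of reads among these features is uncertain, so the 10 rises may not all be separate measurements. VTC3 (0.34), VTC4 (0.20) and PHO8 (0.13) were the remaining rises. The log2 fold change of PHO8 was 0.20 after median-ratio and 0.23 after nuclear rescaling, and its call was lost without IMF17 replicate 1 or 2 or IMX2109 replicate 1 or 2 (0.11 to 0.14). PHO4, the activator of this pathway, fell (-0.27, limma adjusted p = 0.0114), but not past the threshold after nuclear rescaling (-0.18) or without IMF17 replicate 1 (-0.22). PHO2 fell at the threshold (-0.16, limma adjusted p = 0.0475), and the call was lost on leaving out any 1 library except IMX2109 replicate 1 (-0.18 to -0.14), after median-ratio (-0.09) or nuclear (-0.06) rescaling, and with another pseudocount or filter. PHO89, VTC1, VTC2, PHO86 and PHO81 lay between -0.04 and 0.18 and did not pass. VTC1 (0.18) did pass after median-ratio (0.25) and nuclear (0.28) rescaling and without IMX2109 replicate 1 (0.27), and PHO86 after nuclear rescaling (0.15), so that 12 of the 17 features rose on nuclear reads.

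The features whose pattern over the 6 libraries was most like that of THI4, by Pearson correlation of log2(FPKM + 1) among 4964 features with a mean of at least 10 FPKM, were MAL11 (r = 0.9997), the neochromosome features rlmI (0.9996), cspE (0.9995) and hypothetical_protein_18 (0.9995), and MAL12 (0.9995). All of these are high in IMF17, and the neochromosome features were at 0 in IMX2109. MAL11, a maltose transporter gene, averaged 94.1 ± 3.99 FPKM in IMF17 and 10.7 ± 0.714 FPKM in IMX2109. MAL12, a maltase gene, averaged 80.5 ± 4.10 FPKM in IMF17 and 5.40 ± 0.236 FPKM in IMX2109. Each r is over 6 libraries in 2 groups that lie far apart and carries no test.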

How the data were processed

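Polyadenylated RNA of 6 cultures, 3 per strain, was measured. Per the labels' protocols, extraction used hot phenol, followed by a stranded mRNA library kit and Illumina sequencing. The authors deposited FPKM values, 1 table per library with 5703 features. The submitters' processing notes name STAR 2.5.4a, SAMtools, featureCounts, edgeR and DESeq2. The sources used here give neither their settings nor the use of strand or of multiply matching reads. Features lie, per the file headers, on a polished assembly of IMF17 with its neochromosome, so IMX2109 reads too were counted on IMF17 gene models, and sequence that differs in IMX2109 could lose reads there.

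Groups and replicate numbers came from the sample titles. FPKM times length gave whole reads for 100% of values within 0.01 reads. Replicate libraries differed by more than sampling noise, so none was counted as a copy. The 5425 features averaging at least 1 FPKM entered limma 3.58.1 (R 4.3.3, two-sided, with a variance trend) as log2(FPKM + 1), which understates changes of low genes. P-values were adjusted by Benjamini-Hochberg over all features, with a threshold of 0.05. Folds are ratios of mean FPKM. The count test used was limma-voom on the recovered reads, as an alternative. The procedure was also run on simulated reads, with the same dispersion for all genes and no culture standing apart. Those settings are simpler than these data, so that run gives no support to the calls here. Other steps used Python 3.11.15 with pandas 2.3.3, Biopython 1.88 and matplotlib 3.10.9.

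Named genes were the 10 thiamine genes, all genes of 4 lists, the nearest feature on each side of each thiamine gene, and the 5 features most like THI4. Genes at the loci of THI5 and its copies were added. The members and lists were chosen with earlier results of these data known. PDC5, PDC6 and PHM6 are not analysed here. Sequences came from the NCBI R64 assembly by locus tag. Coding lengths in the tables equalled those of R64 for all 10 thiamine genes. Alternatives were another pseudocount, filter, scaling or test, a replicate block, and leaving out each library.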

Additional observations from a re-analysis of the deposited data

How the results depend on the processing

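The difference of every one of the 10 thiamine genes kept its direction under the 13 alternatives (12 for THI2 and THI5, which a filter of 10 FPKM removes), except THI80, whose log2 fold change ran from -0.0017 to 0.13. THI4 ran from 3.32 to 3.71, PHO3 from 1.43 to 1.71, THI20 from 0.90 to 1.09, THI7 from 0.82 to 0.96, THI6 from 0.60 to 0.74, THI5 from 0.46 to 1.28, THI2 from 0.55 to 0.84, THI21 from 0.29 to 0.46 and THI3 from 0.04 to 0.18. Leaving out each library in turn, 8 of the 10 genes were called every time, a description only, since they were chosen on this contrast. Over all features those fits called 525 to 757 higher and 938 to 1324 lower.

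Rescaling moved the counts over all features most. On nuclear reads 1032 features were called higher and 480 lower, with rises numbering 4 among the other thiamine genes, 3 among the vitamin B6 genes, 6 among the thiamine diphosphate enzymes and 12 among the phosphate genes, and after median-ratio rescaling 641 were called lower. A filter of 10 FPKM left 1 rise among the other thiamine genes and 2 among the thiamine diphosphate enzymes, since the genes at low level were no longer tested. Falls among the thiamine diphosphate enzymes numbered 0 under both rescalings and 1 to 2 on leaving out each library, and TKL1 turned to 0.0027 on nuclear reads. Falls among the phosphate genes numbered 1 with a pseudocount of 5, with no filter, with a filter of 10 FPKM and after median-ratio rescaling, 0 on nuclear reads, and 0 to 2 on leaving out each library. Beyond rescaling, the filter and fewer samples, the cause was not tested.

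Cultures with the same replicate number did not deviate together (correlations of 0.10, -0.05 and 0.14, with 1 of 3 numbers matching best with itself), so the numbers were not taken to pair them. With the replicate block 685 features were called higher and 1517 lower, 8 of the 10 thiamine genes were higher, and there were 3 rises and 1 fall among the thiamine diphosphate enzymes and 11 rises and 1 fall among the phosphate genes. The block ended the calls of PDC1 (limma adjusted p = 0.0582), TKL1 and PHO2, and VTC1 passed (limma adjusted p = 0.00506). Depth limits THI5, with 91 reads over the IMX2109 libraries, and its copies.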

Other observations

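The nearest features on each side of the 10 thiamine genes made up 20 features, of which 5 rose and 3 fell in IMF17 (limma). Over all tested features 12.1% were called higher and 25.3% lower. Besides SNZ3 and PHO5, the rises were in SKN1 beside THI4, VVS1 beside THI2 (log2 fold change 0.46) and MRK1 beside THI3 (0.36). SKN1 averaged 42.2 ± 1.09 FPKM in IMF17 and 32.4 ± 2.33 FPKM in IMX2109. Besides AAD16, the falls were in LEA1, a spliceosome gene beside THI6 (-0.18), and RPP1A, a ribosomal stalk gene on the other side of THI3 (-0.27). ENP2, 387 bases from THI4, averaged 49.9 ± 7.09 FPKM in IMF17 and 58.4 ± 4.59 FPKM in IMX2109 and did not pass (limma adjusted p = 0.071). The neighbours of THI80, THI20 and THI21 did not pass the test.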
